A study of Mus musculus with 7 samples.

Results

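Blood and vessel lining arise together in the mouse embryo, and 10 genes of these lineages were followed here through embryoid body differentiation. They are the endothelial genes Kdr, Cdh5 and Pecam1, the transcription factors Etv2, Tal1, Lmo2, Gata1 and Runx1, and the embryonic globins Hba-x and Hbb-bh1. The genes were chosen by name, with earlier results of these data known, and all 10 of 10 were found among the 30487 mouse gene rows of the table. Polyadenylated RNA had been sequenced from 7 libraries of Bry-GFP mouse embryonic stem cells, a line named for a fluorescent reporter of the mesoderm gene Brachyury.

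The day 0 libraries (n = 2) were labelled stem cells, from a line kept on embryonic fibroblast feeders with serum and LIF. Day 2 (n = 2) came after 48 h of serum-free suspension at 75000 cells per mL, in which cells aggregate into embryoid bodies. Day 4 (n = 2) followed another 48 h with 150 ng/mL Noggin, 25 ng/mL Wnt3a and 9 ng/mL Activin A. Day 6 (n = 1) followed a last 48 h with 10 ng/mL basic FGF. Every library thus derives from the same line, and the day 4 and day 6 cells had both been through Noggin, a secreted inhibitor of BMP signals. The labels call the replicates biological but do not say what was kept separate, so the p-values measure only the spread between these libraries. Removal of feeder cells before the day 0 RNA was taken was not given in the sources used here.

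In the embryo, mesoderm leaving the primitive streak under BMP signals forms progenitors that carry Kdr, the main receptor of the vascular growth factor VEGF. Etv2, an ETS-family factor, acts early in these cells and turns on Tal1 and Lmo2, which assemble with GATA factors into a complex that drives blood genes. Endothelial cells are then held together by Cdh5 (VE-cadherin) and Pecam1 (CD31), while the first red cells of the yolk sac fill with the embryonic globins. Runx1 is needed for the later wave of definitive blood. Some members also have other uses: Pecam1 is a known surface marker of mouse embryonic stem cells, and Tal1 also acts in the spinal cord.

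Levels are given as log2 of 1 plus scaled reads, for each library in turn (replicate 1, then replicate 2), and a day 6 value is that of its single library. The table's low values lie in steps, and the order of the steps gave the reads behind them. The first step is 1 read, and 1202 to 1333 genes of a library stood on it. Reads above 12 were extrapolated in a straight line and are approximate. On this count the libraries held roughly 2690000 to 5460000 reads, and 3 reads corresponded to a level between 1.45 and 2.30. Kdr and Pecam1 were above 3 reads in 7 of 7 libraries and Tal1, Lmo2 and Runx1 in 6. Cdh5 was above 3 reads in 4, Gata1 in 3, Etv2 in 2, and each globin in 1. A gene with the value 0 is called listed at 0, because 0 may stand for a failed estimate: Gapdh, the ubiquitous glycolytic enzyme, was also listed at 0 on day 6. In RNA from whole cultures, fewer cells of a type and less RNA per cell cannot be told apart.

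**Figure D1:**
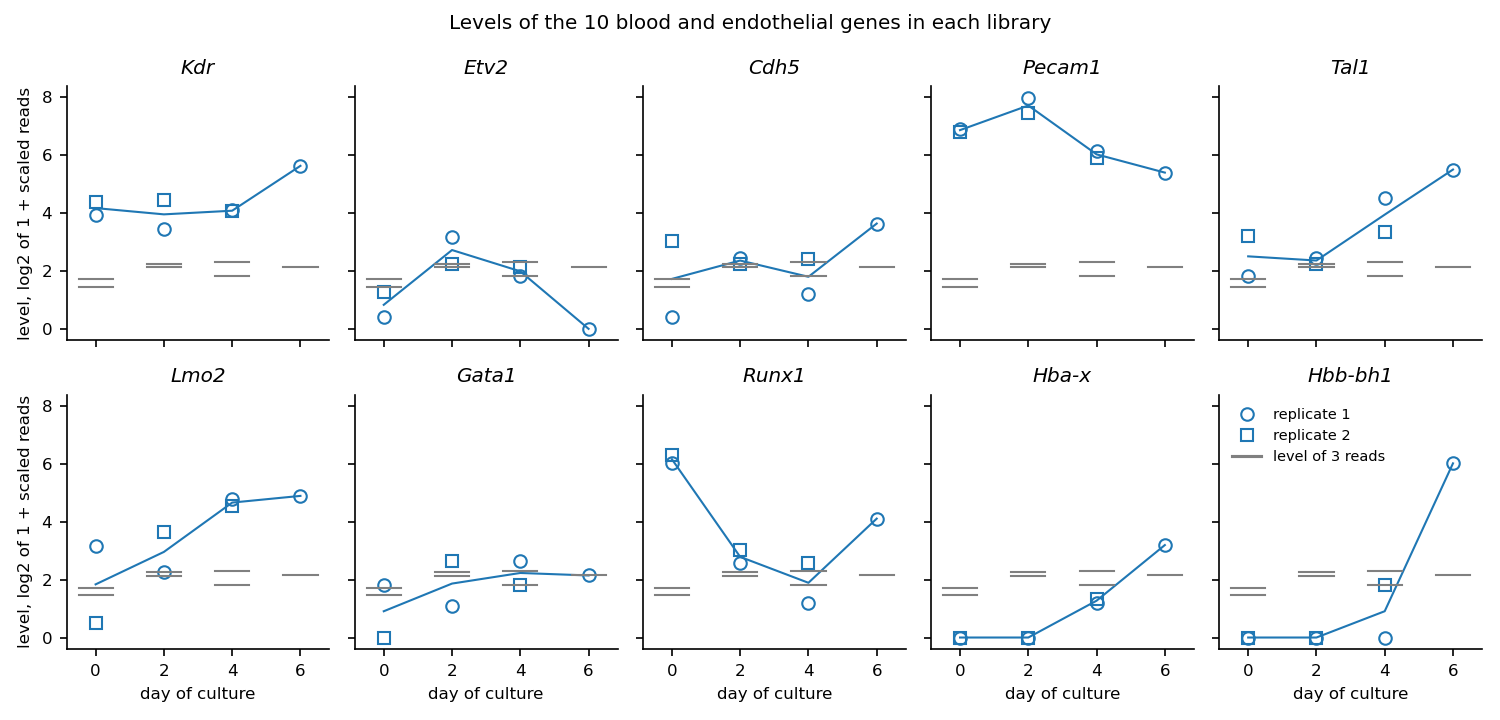
Level (log2 of 1 plus scaled reads) of each of the 10 genes by day of culture, each symbol a library (circle, replicate 1; square, replicate 2), with a line through the day means and grey bars at the level of 3 reads in each library. Hbb-bh1 stands at 6.01 on day 6 after 5 libraries listed at 0, Runx1 starts at 6.00 and 6.30 on day 0, and Etv2 and Gata1 stay close to the grey bars.

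Of the embryonic globins, Hbb-bh1 rose from day 4 to day 6, and both passed the joint test over all days, Hba-x on few reads. Hba-x encodes the embryonic alpha-like globin zeta (chromosome 11, 32276400 to 32278116, plus strand of GRCm38) and Hbb-bh1 an embryonic beta-like globin (chromosome 7, 103841637 to 103843164, minus strand). They lie on different chromosomes and are protein-coding, and no other annotated gene overlaps either. The bases upstream of Tal1 and of Kdr, 2 of the genes with their highest level on day 6, are shown so that the letters can be set beside these levels. Each run is the 250 bases before the annotated start, read 5′ to 3′ on the gene's strand, from RefSeq on GRCm38.p6. Capitals mark a GATA motif (AGATAA or TGATAA) or an E-box (CAGATG), searched on both strands.
Tal1, chr4:115056176-115056425, plus strand, first of 2 windows: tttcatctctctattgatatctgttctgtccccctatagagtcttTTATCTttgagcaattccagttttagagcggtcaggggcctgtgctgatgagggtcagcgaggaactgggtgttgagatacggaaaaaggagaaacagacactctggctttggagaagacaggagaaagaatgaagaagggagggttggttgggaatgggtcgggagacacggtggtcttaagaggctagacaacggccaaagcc
Kdr, chr5:75978456-75978705, minus strand: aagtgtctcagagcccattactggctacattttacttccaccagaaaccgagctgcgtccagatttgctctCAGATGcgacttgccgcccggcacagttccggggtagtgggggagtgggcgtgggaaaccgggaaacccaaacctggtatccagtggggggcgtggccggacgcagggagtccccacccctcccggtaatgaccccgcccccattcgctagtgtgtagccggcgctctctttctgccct
The Tal1 window shown held the GATA motif on the opposite strand, where it reads TTATCT, at position -205 from the start, and the second Tal1 window held none of the motifs searched. The Kdr window held CAGATG at position -179 and no GATA motif. Not in capitals, it also held the ETS motif CCGGAA on the opposite strand at position -153 and CCACCC at position -66. The RefSeq window of Hba-x held TGATAA at position -108 and a TATA motif (TATAAA) at position -28, but 200 of its 250 bases lie inside the first exon of the longer GENCODE gene model, whose start differs, and it is not shown. A Runx1 window also held the ETS motif, and those of Gata1 and Hba-x held CCACCC. Among all 32851 windows of this length, 16.6% held a GATA motif, 14.4% the E-box and 12.4% the TATA motif. The ETS motif was in 12% and CCACCC in 28.1%, so single matches are common. RefSeq windows were matched for 6 of the 10 genes (Kdr, Tal1, Etv2, Gata1, Runx1 and Hba-x), and of these Tal1 and Hba-x held a GATA motif.

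Hbb-bh1 was listed at 0 in both libraries of day 0, both of day 2 and replicate 1 of day 4, stood at 1.81 (3 reads) in day 4 replicate 2, and reached 6.01 (about 55 reads) on day 6. The day 6 library was thus above every earlier one. Hbb-bh1 rose from day 4 to day 6 by a log2 of 5.10 (SE 0.84, limma adjusted p = 0.0317). Per read of depth this was 42.9 times the pooled day 4 libraries, with an exact 95% interval of 13.9 to 214 that covers counting error only. The test takes the spread of the single day 6 library to be that of the other days. Without any 1 of 5 libraries in turn the adjusted p was 0.0612 to 0.183, and only without day 4 replicate 2, which held the 3 reads, did it pass (log2 6.01, adjusted p = 0.0474). With 10 instead of 1 added before the log the difference was 2.71, and without trend and robust moderation the adjusted p was 0.0639.

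Hba-x was listed at 0 in the 4 libraries of days 0 and 2, and had 1 and 2 reads on day 4 (levels 1.20 and 1.34) and 7 reads on day 6 (3.19). The day 6 library was above both of day 4, and these were above the earlier days, by 1 and 2 reads. The day 6 to day 4 difference was 1.92 (SE 0.50, adjusted p = 0.0775) and did not pass. Per read of depth the ratio was 5.46, with an exact 95% interval of 1.25 to 32.7 for counting error. Hba-x passed the joint test over all days (limma F test, adjusted p = 0.0122), as did Hbb-bh1 (adjusted p = 0.00959). In the fit that also kept the genes at 0 throughout, Hbb-bh1 still passed the joint test but Hba-x did not. Without 1 library of days 0, 2 or 4 in turn the day 6 difference of Hba-x ran from 1.85 to 1.99. Both globins are tied at 0 on days 0 and 2, and such ties add no spread between replicates. The tests of both globins, the joint test included, thus take their spread partly from ties at 0, and day 6 is 1 library.

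The other globin genes stayed at or near 0. Hbb-y, the other embryonic beta-like globin, was listed at 0 in 6 libraries and had 1 read on day 6. The adult globins Hbb-bt and Hbb-bs were listed at 0 in all 7 libraries. Hba-a1 had 1 read in day 2 replicate 1 alone, and Hba-a2 had 1 read in each of 3 libraries, day 6 among them. Globin genes are close relatives, and the treatment of reads shared between them was not given in the sources used here. Of the 11 globin genes listed 9 had a row and 7 were tested, and Hbb-bh1 alone passed in any comparison of successive days.

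**Figure D2:**
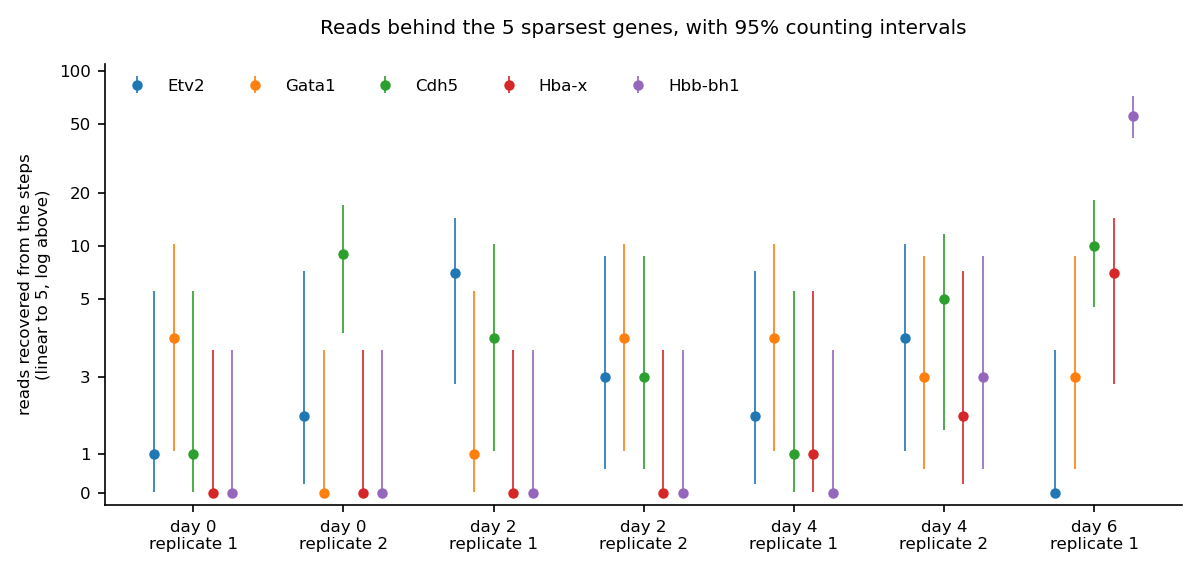
Reads recovered from the steps in each of the 7 libraries for the 5 genes with the fewest (Etv2, Gata1, Cdh5, Hba-x and Hbb-bh1), on an axis that is linear to 5 and logarithmic above, with exact 95% Poisson intervals that cover counting error only. Hbb-bh1 on day 6, at about 55 reads, stands apart, while the other values lie between 0 and 10 reads.

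Among the other red cell genes, 1 rose and 1 fell from day 4 to day 6, of 12 tested. Klf1, the erythroid factor that turns on globin genes, and Hemgn, an erythroid nuclear protein, were listed at 0 in every library. Alas2, the first enzyme of heme synthesis in red cells, had about 3.6 reads on day 6 and up to 3 before. Epor, the erythropoietin receptor, was listed at 0 on day 6 after 5 and 4 reads on day 4. The rise was Tfrc, the transferrin receptor used by most dividing cells (log2 0.93, SE 0.15, adjusted p = 0.0288), and the fall was Car2, a carbonic anhydrase (log2 -2.60, SE 0.22, adjusted p = 0.0104).

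Among the blood factors, Tal1 (chromosome 4, 115056426 to 115071755, plus strand) stood at 1.81 and 3.19 on day 0, 2.46 and 2.25 at day 2, 4.52 and 3.36 on day 4, then 5.49 on day 6. In reads that was 4 and 10, then 4 and 3, then about 18 and 11.2, then about 39. Both day 4 libraries were above both day 2 libraries, and day 6 was above all. The steps were 1.58 from day 2 to day 4 (SE 0.63, adjusted p = 0.211) and 1.56 from day 4 to day 6 (SE 0.77, adjusted p = 0.272), and neither passed. Tal1 also missed the threshold over all days (adjusted p = 0.0554), and it passed there only when 10 rather than 1 was added before the log.

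Lmo2, the LIM-domain bridge of the Tal1 complex (chromosome 2, 103957986 to 103981878, plus strand), stood at 3.16 and 0.51 on day 0, 2.26 and 3.64 at day 2, 4.78 and 4.53 on day 4, then 4.88 on day 6. The day 0 libraries held 12 reads and 1 read, a gap of 2.65 on the log2 scale, against a median gap of 0.24 over all genes tested that day. Days 4 and 6 lay above days 0 and 2 without overlap, but the step from day 2 to day 4 (1.70, SE 0.91) did not pass (adjusted p = 0.355). From day 4 to day 6 it differed by 0.23 (SE 1.11, adjusted p = 1), an error too wide to show that the levels were alike. A gene on the other strand overlaps Lmo2, and the counting by strand was not given in the sources used here.

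Gata1, the red cell and platelet factor (chromosome X, 7959260 to 7978071, minus strand), never exceeded 4 reads. It was at 1.81 and 0 on day 0, 1.08 and 2.64 at day 2, 2.64 and 1.81 on day 4, then 2.14 on day 6. The days overlapped, and a difference could not be detected at this depth (adjusted p = 0.596 over all days). Etv2 (chromosome 7, 30633616 to 30635852, minus strand) stood at 0.40 and 1.26 on day 0, 3.18 and 2.25 at day 2 and 1.83 and 2.14 on day 4, and was listed at 0 on day 6. Its highest value was 7 reads, in day 2 replicate 1. In level both day 2 libraries were above all others, but not in reads. Day 2 replicate 2 held 3 reads, and the deeper library of day 4 replicate 2 held 4. The step from day 0 (1.89, SE 0.61, adjusted p = 0.0986) and the joint test (adjusted p = 0.0766) did not pass.

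Runx1 (chromosome 16, 92601466 to 92826149, minus strand) had its highest level on day 0, at 6.00 and 6.30, or about 92 and 94 reads. It was at 2.55 and 3.01 on day 2, 1.20 and 2.58 at day 4, and 4.10 (about 14 reads) on day 6. Day 0 lay far above every later library, and day 6 lay above days 2 and 4. Runx1 fell 10.3-fold from day 0 to day 2 (log2 -3.37, SE 0.54, adjusted p = 0.0124). Without 1 library in turn the difference stayed between -3.59 and -3.14, while the adjusted p rose to between 0.0528 and 0.221. The higher value on day 6 (log2 2.21 against day 4, SE 0.66) did not pass (adjusted p = 0.101). An antisense gene overlaps Runx1, and the counting by strand was not given in the sources used here.

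Markers of 2 other cell types fell in the same step as Runx1. All 12 feeder fibroblast markers fell from day 0 to day 2, and their summed level was 14.3 to 14.5 on day 0, 9.75 to 10.4 at day 2, 8.67 to 8.73 on day 4, then 8.93 on day 6. Of 8 macrophage and mast cell markers 5 fell, with a summed level of 9.44 to 9.503 on day 0, 5.75 to 5.89 at day 2, 4.51 to 4.91 on day 4, then 3.69 on day 6. Adgre1, the macrophage marker F4/80, was at 5.67 and 5.58 on day 0, 0 and 1.09 at day 2 and listed at 0 afterwards. Lyz2, the lysozyme of myeloid cells, fell by 4.41 and Csf1r, the receptor of the macrophage growth factor, fell by 3.28. The mast cell markers Cpa3 and Ms4a2 were at 0 in 6 of 7 libraries each. On day 6 Runx1 was higher than on day 4, the feeder sum was slightly higher (8.93 against 8.67 to 8.73) and the macrophage sum was lower. Only 1 of the 8 macrophage and mast cell markers was above 3 reads in each library of days 4 and 6. What part these cells have in the fall of Runx1 was not tested.

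**Figure D3:**
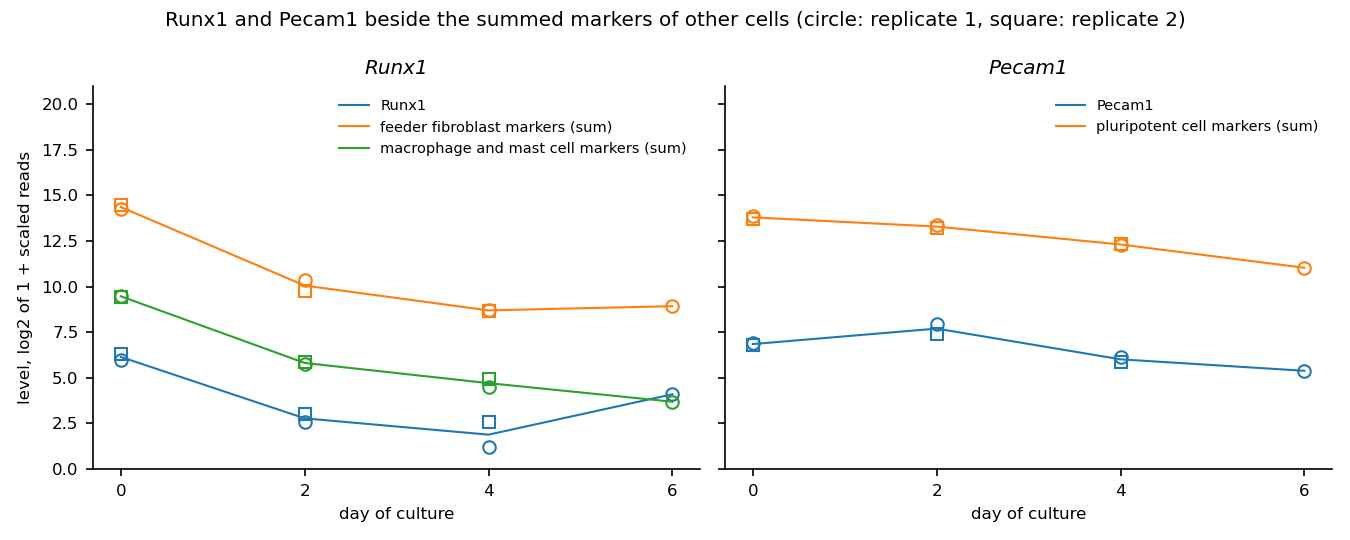
Levels (log2 of 1 plus scaled reads) by day of culture of Runx1 beside the summed feeder fibroblast and macrophage markers, and of Pecam1 beside the summed pluripotent cell markers, with circles for replicate 1, squares for replicate 2 and lines through day means. Runx1 and both sums are highest on day 0, and Pecam1 is highest on day 2 while the pluripotent sum is lower on each later day.

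Pecam1 (chromosome 11, 106654217 to 106750628, minus strand) had between about 36 and 215 reads in every library. It stood at 6.91 and 6.80 on day 0, 7.98 and 7.43 at day 2, 6.15 and 5.89 on day 4, then 5.39 on day 6. No 2 days overlapped, with day 2 highest and day 6 lowest. Pecam1 fell 3.21-fold from day 2 to day 4 (log2 -1.68, SE 0.24, adjusted p = 0.0232). Its difference from day 0 to day 2 (0.85, SE 0.24, adjusted p = 0.0723) passed only with a filter on low genes (adjusted p = 0.0375). The fall ran from -1.96 to -1.41 without 1 library in turn, with an adjusted p of 0.126 to 0.185, and without trend and robust moderation its adjusted p was 0.0683.

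Pluripotent cell markers fell in the same step as Pecam1, 6 of 10 from day 2 to day 4 and 8 of 10 from day 4 to day 6. Their summed level was 13.7 to 13.9 on day 0, 13.2 to 13.4 at day 2, 12.3 on day 4 in both libraries and 11.035 on day 6. All 10 were above 3 reads in every library. From day 0 to day 2, when Pecam1 did not fall, 4 of the 10 fell and 6 did not pass. Of those 6, Dppa4 (0.31), Utf1 (0.30) and Sox2 (0.19) were above 0, and Pou5f1 (-0.26), Nanog (-0.48) and Dppa5a (-0.24) below. Their part in the course of Pecam1 was not tested.

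Kdr (chromosome 5, 75932827 to 75978458, minus strand) stood at 3.94 and 4.39 on day 0, 3.45 and 4.44 at day 2 and 4.08 and 4.06 on day 4, which overlap, and at 5.62 (about 42 reads) on day 6. The first 3 days cannot be ordered, and day 6 stood above all 6 libraries. The difference from day 4 was 1.55 (SE 0.53, adjusted p = 0.131) and did not pass. Cdh5 (chromosome 8, 104101625 to 104144511, plus strand) stood at 0.40 and 3.04 on day 0, 2.46 and 2.25 at day 2, 1.20 and 2.39 on day 4, then 3.63 on day 6. In reads these were 1 and 9, 4 and 3, 1 and 5, and 10, with the 2 stem cell libraries as far apart as any days. Its day 6 difference (1.84, SE 1.13, adjusted p = 0.381) did not pass. As with Runx1, an antisense gene overlaps Cdh5, and the counting by strand was not given.

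Counted together, 1 of the 10 genes passed in each step. From day 0 to day 2 it was Runx1 (lower), while 12% of all 21813 genes tested passed, 5.76% higher and 6.2% lower. From day 2 to day 4 it was Pecam1 (lower), against 3.59% of all genes, 1.45% higher and 2.13% lower. From day 4 to day 6 it was Hbb-bh1 (higher), against 4.46% of all genes, 1.27% higher and 3.18% lower. The median difference of the 10 genes was 0.32, 0.25 and 1.55 in these steps, against 0.05, 0.00 and 0.00 over all genes tested. In the single day 6 library 7 of the 10 were above the day 4 mean and 3 below (Etv2, Pecam1 and Gata1). Of the 7 only Hbb-bh1 passed, and the share of all genes above day 4 was not counted. Over all days 4 of 10 changed by limma's F test (Pecam1, Runx1, Hbb-bh1 and Hba-x), against 28.6% of all genes. Without either day 0 library Pecam1, Runx1 and Hbb-bh1 no longer passed that test. The pass of Hba-x rests partly on libraries tied at 0 on days 0 and 2. Without any 1 library of days 0, 2 or 4, none of the 10 passed in the first or the second step, where 1 to 3 of them had an unadjusted p under 0.05.

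**Figure D4:**
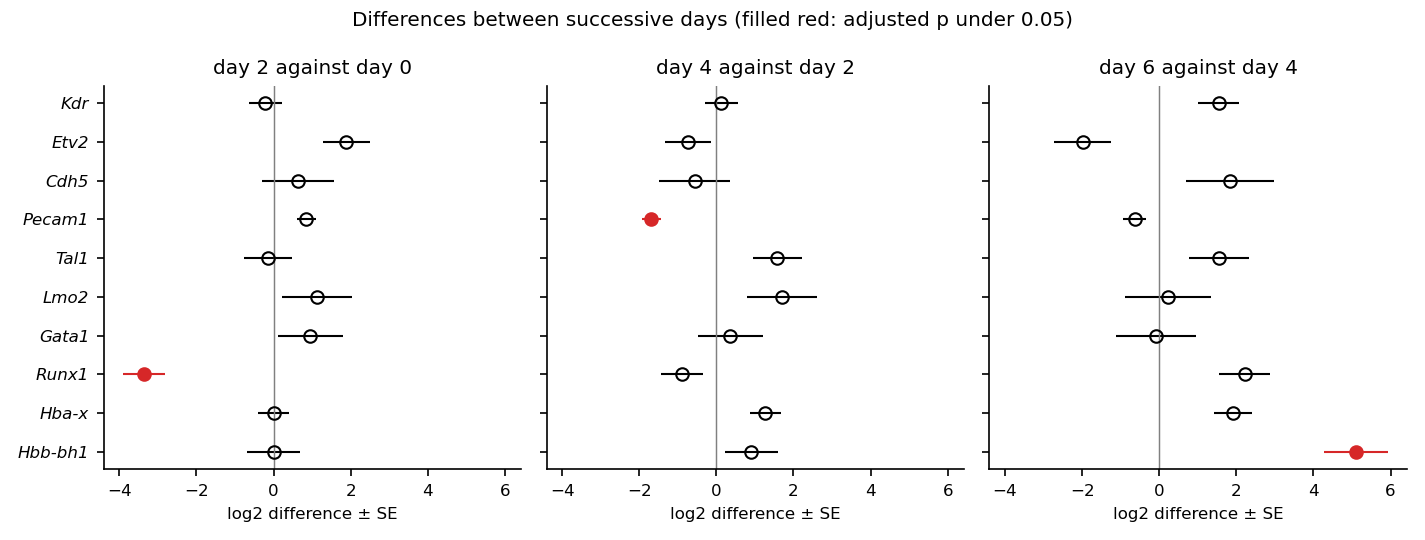
Log2 difference (point) with its standard error (bar) of the 10 genes in the 3 comparisons of successive days, filled red where the limma adjusted p is under 0.05. Runx1 (-3.37), Pecam1 (-1.68) and Hbb-bh1 (5.10) are the filled points, 1 in each panel.

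Set per kilobase of annotated exon, which allows a rough comparison of different genes, the order changed from day to day. The length joins the exons of all annotated transcripts of a gene, and can exceed that of the transcript expressed. On day 0 Pecam1 had 18.4 scaled reads per kilobase and Runx1 5.85, and no other gene of the 10 exceeded 1.93. On day 2 Pecam1 had 33.9, Etv2 5.65 and Lmo2 3.53. On day 4 Lmo2 (11.2) and Pecam1 (10.3) led, followed by Tal1 (3.56). On day 6 Hbb-bh1 led with 103, then Lmo2 (13.2), Tal1 (10.1), Hba-x (8.65), Pecam1 (6.56) and Kdr (5.34). The Etv2 value rests on 7 and 3 reads of a short gene, and the single day 6 library gives no spread for its order.

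The genes with the course most like each of the better measured members over the 7 libraries were picked by Pearson correlation. For Kdr these were Etv6, an ETS-family repressor (Pearson r = 0.99), Jkamp and Tmem65 (0.97 each). For Tal1 they included Vps26b (0.99) and Tcaf1 (0.98). Pecam1 ran with Pramef12 (0.99), Tle4, a Groucho-family co-repressor, and Gm19705 (0.98 each). Lmo2 ran with Gpr19, Hdac3, a histone deacetylase (0.98 each), and Rilpl2 (0.97). Runx1 ran with Fam114a1, Stt3a, a subunit that adds sugars to new proteins, and Polk, a DNA polymerase (0.99 each). These are descriptions over 7 libraries from only 4 days, picked as the highest of up to 11800 genes, and Etv6 moved far less than Kdr, from 7.77 to 8.26.

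In the wider vascular signalling list of 14 VEGF and angiopoietin genes, 4 fell and 1 rose from day 0 to day 2 (median -0.93). Vegfa, the ligand of Kdr, fell by 1.78 (adjusted p = 0.00219) and rose by 1.68 from day 2 to day 4 (adjusted p = 0.00951). Flt1, the other main VEGF-A receptor, fell by 2.36, rose by 1.67 on day 4 and fell by 1.56 on day 6 (adjusted p = 0.0478). Nrp1, a VEGF co-receptor, fell by 3.26, Figf (VEGF-D) fell by 2.77, and Angpt1, a ligand of Tek, rose by 2.02. Tek, the receptor of endothelial cells, was at 4.78 and 4.09 on day 0 but 2.97 on day 6. It did not pass in any step, and passed narrowly over all days (limma F test, adjusted p = 0.0499). On day 4 the list had 2 rises (Vegfa and Flt1), and on day 6 1 rise, Nrp2 (2.05, adjusted p = 0.0491), and 1 fall. The day 0 to day 2 falls of this and the next lists came in the step in which the feeder and macrophage markers fell, and the part of those cells was not tested.

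Of 19 endothelial junction, surface and identity genes, Pecam1 and Cdh5 included, 4 fell and 1 rose from day 0 to day 2 (median 0.54). The falls were Acvrl1, a TGF-beta family receptor (-3.55), Emcn, endomucin (-2.50), Ecscr (-2.39) and Cd34 (-1.93). The rise was Aplnr, the apelin receptor of early mesoderm and endothelium, which was at 0 and 0.51 on day 0, 2.70 and 3.38 at day 2, 7.52 and 6.94 on day 4, then 7.04 on day 6. Aplnr also gave the list's 1 rise from day 2 to day 4 (log2 4.19, SE 0.43, adjusted p = 0.0106), beside falls of Cd34 (-2.07), Eng, endoglin (-1.82), and Pecam1 (median -0.17). On day 6 none of the 19 passed by limma (median -0.67). Of 12 endothelial transcription factors 2 fell from day 0 to day 2, Foxc2 (-4.27) and Ets1 (-2.13), and none passed in the other steps.

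**Figure D5:**
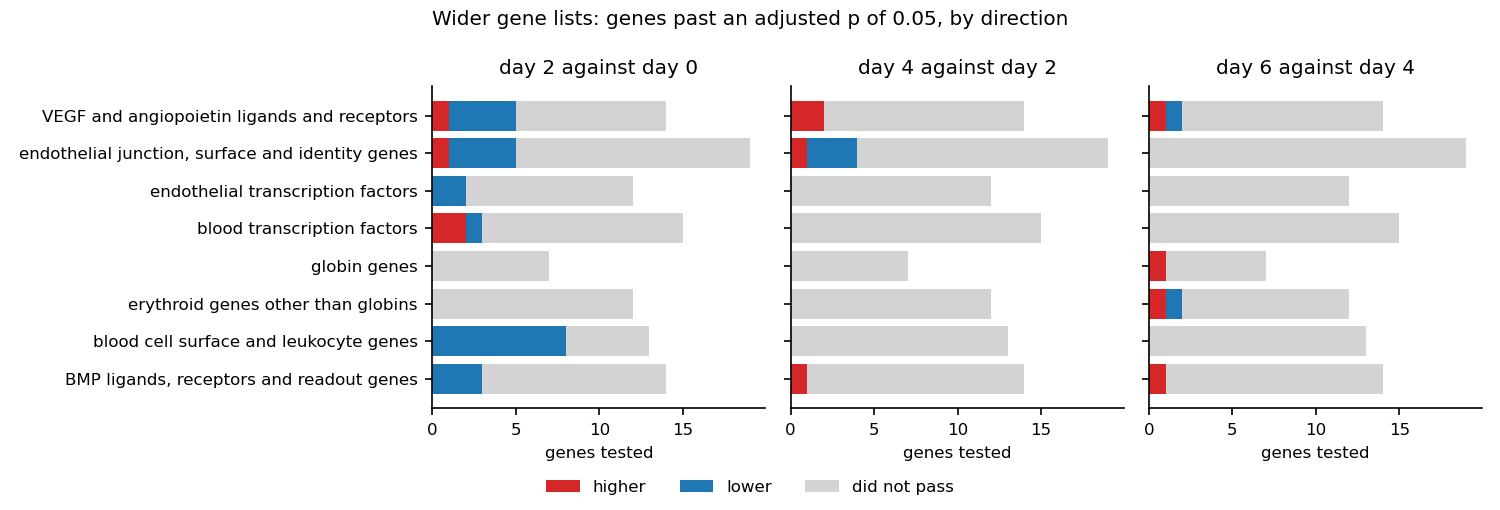
Number of tested genes in 8 wider lists that were higher (red), lower (blue) or did not pass an adjusted p of 0.05 (grey) in each comparison of successive days. The largest blue bar is that of blood cell surface and leukocyte genes from day 0 to day 2, 8 of 13.

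Of 17 blood transcription factors 15 were tested, since Klf1 and Gfi1 were listed at 0 everywhere. From day 0 to day 2 Myb (2.53, adjusted p = 0.0144) and Ikzf1 (1.73, adjusted p = 0.0299) rose and Runx1 fell, with a median of 0.00. In the later steps none of the 15 passed (median 0.21 on day 4, then 0.00 on day 6). Ldb1 and Cbfb, the broadly expressed partners of the Tal1 complex and of Runx1, were between 8.20 and 9.59 in every library. Of 13 tested blood cell surface and leukocyte genes 8 fell from day 0 to day 2 (median -2.41). They included Cd53 (-4.67), Csf1r, Tyrobp, an adaptor of myeloid receptors (-3.18), and Ptprc, the pan-leukocyte marker CD45 (-3.11). Ptprc was at 3.88 and 4.12 on day 0, 0 and 1.79 at day 2 and listed at 0 from day 4 on. None of the 13 passed later.

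Among 14 BMP genes, 3 readout genes fell from day 0 to day 2 (median -0.32): Id1 (-2.71), Id3 (-2.48) and Smad7 (-1.72). Bmp4, a main inducer of blood mesoderm, was at 6.33 and 6.51 on day 0, 5.45 and 4.06 at day 2, 3.89 and 3.87 on day 4, then 2.72 on day 6. It passed in no single step, but did over all days (limma F test, adjusted p = 0.0145). In the step with Noggin, Bmp2 rose by 2.09 (adjusted p = 0.029) and no BMP gene passed as lower (median 0.36). Smad7 was -0.93 there (SE 0.20, adjusted p = 0.0615), with 5.63 and 5.41 on day 4 below 6.48 and 6.42 on day 2. On day 6 the receptor gene Bmpr1a rose by 0.74 (adjusted p = 0.0411), with a median of 0.33. Of the remaining marker lists, 5 of 8 neural genes rose from day 2 to day 4. The summed level of the 8 was 9.36 to 9.81 on day 2, 10.9 to 11.5 on day 4, then 11.9 on day 6. Tal1 and Lmo2 were higher in both day 4 libraries too, but neither passed in that step. None of 9 tested visceral endoderm markers passed in any step. Among 6 tested paraxial mesoderm markers only Foxc1 did, lower on day 2 (-1.84) and higher on day 6 (2.62). The part of these cells in the values of the 10 genes was not tested.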

How the data were processed

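Per the labels' protocols, libraries were made with a stranded mRNA kit. The submitters' processing notes name GRCm38 as the build. Aligner, counter and use of strand: not given in the sources used here. As deposited, the authors' data are 1 table with 30590 rows, and each of its 7 value columns was matched to a library by its name (0 unmatched). In 1 column name the letter O stands for a zero. The deposited unit, inferred from the values, is the natural log of 1 plus scaled reads. The top 9896 ranks of all columns agree within 0.01, from which quantile normalization was inferred. Values were divided by the natural log of 2, and fold changes on this scale understate the change of low genes.

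After leaving out 103 rows of foreign sequence and 8674 genes at 0 throughout, 21813 genes were tested with limma-trend and robust moderation (limma 3.58.1, R 4.3.3) in a single model of the 4 days over all 7 libraries, which leaves 3 degrees of freedom. Benjamini-Hochberg adjustment ran over all genes, at a threshold of 0.05. The script was tested on simulated data. The 10 genes and the 14 wider lists (165 of 168 genes in the table) were chosen with earlier results of these data known. From each list, up to 4 genes past the threshold per step and direction are named, with chosen relatives of the members, and for members above 3 reads in at least 5 libraries the 3 most correlated genes with a mean of at least 10 scaled reads. Some genes that this rule names are not reported here. Other list genes are named to describe their list, chosen after their values were seen. Read steps are values shared by at least 40 genes, up to 12 reads. Positions are from GENCODE M21 (GRCm38). Alternatives were the replicate block, filters, an added 10, centring, plain limma, a fit without day 6 and leaving out each library.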

Additional observations from a re-analysis of the deposited data

How the results depend on the processing

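Leaving out 1 library of days 0, 2 or 4 in turn had the largest effect. The count of all genes called then ran from 0 to 791 for day 2 against day 0, from 0 to 554 for day 4 against day 2, from 0 to 817 for day 6 against day 4 and from 1814 to 3215 over any day. The counts of 0 came without day 2 replicate 1 in the step to day 2, without any 1 library but day 4 replicate 2 in the step to day 4, and without either day 2 library or day 4 replicate 1 in the step to day 6. In those fits limma still gave 3706 to 5926 genes with an unadjusted p under 0.05. Of the 10 genes it left 0 called in the steps to day 2 and day 4, 0 to 2 in the step to day 6 and 1 to 3 over any day. In the same fits some uncalled differences changed sign. From day 0 to day 2 Kdr ran from -0.71 to 0.28, Tal1 from -0.83 to 0.54, Cdh5 from -0.69 to 1.95 and Lmo2 from -0.21 to 2.44. From day 2 to day 4 Kdr ran from -0.37 to 0.62, Cdh5 from -1.16 to 0.036 and Gata1 from -0.41 to 1.14, and from day 4 to day 6 Gata1 ran from -0.50 to 0.33. The cause was not tested beyond the fewer samples of these fits.

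Without trend and robust moderation 1609, 335 and 609 genes were called in the 3 steps, against 2609, 782 and 972. With that setting Hba-x replaced Pecam1 as the 1 call in the step to day 4 and Hbb-bh1 as that in the step to day 6. The low-value filter called 1422 and 2200 genes in the steps to day 4 and day 6, and no filter 445 in the step to day 4. The low-value filter kept Kdr, Pecam1 and Runx1 alone of the 10 genes, so the others, Hbb-bh1 among them, could not be called. Pecam1 and Runx1 were called in the step to day 2, beside 2950 of all 11800 genes kept. None of the kept members was called in the step to day 6 (2 with an unadjusted limma p under 0.05). Over any day Pecam1 and Runx1 were called, beside 6425 of all genes kept. With 10 added before the log, 2 were called in the step to day 6 (Hbb-bh1 and Hba-x), and the split of all genes there was 450 higher and 509 lower, against 278 and 694. The fit without day 6 called the same member in the steps to day 2 and day 4.

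Replicate numbers showed no pairing that held over all days. Over 11800 genes the replicate differences of days 0 and 2 correlated at -0.0582 and those of days 0 and 4 at -0.0662. Those of days 2 and 4 correlated at 0.222, and whether these days shared a replicate effect was not tested. The replicate block called 606 genes from day 4 to day 6, and left the same member called in each step, while Lmo2 there went from 0.23 to -0.024, uncalled. The alternative for raw counts was not run, since the table holds none. Depth limits the sparse members: Gata1, Etv2 and both globins were above 3 reads in at most 3 of 7 libraries, so their differences rest on few reads. The median difference from day 0 to day 2 of genes above the filter was 0.14.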
